A study of Mus musculus with 1298 samples.

Results

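Levels of 9 genes of the muscle side of the neuromuscular junction were measured in Pax7-lineage cells of the mouse embryo. They were chosen by name: *Chrna1*, *Chrnb1*, *Chrnd*, *Chrng* and *Chrne*, which encode subunits of the muscle acetylcholine receptor, and *Musk*, *Rapsn*, *Lrp4* and *Dok7*, which encode the machinery that gathers the receptor under the nerve. All 9 are among the 17634 genes of the 10× table and the 22938 genes of the bulk table, and 8 are among the 22894 genes of the Smart-seq2 table, where *Chrne* has no row. Across the 3 tables the 9 are part of 26724 genes.

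The cells came from *Pax7CreER:R26R-stop-EYFP* embryos whose mothers were given tamoxifen (TMX) at 75 µg/g body weight on embryonic day (E) 9.5, so that cells expressing *Pax7* around that day, and their progeny, carry YFP. All groups share this genotype and treatment, and there was no untreated group. YFP+ cells from pooled embryos without head, limbs and viscera were profiled on 3 days, E12.5, E14.5 or E16.5, by 10× (UMI counts of transcript ends) and by Smart-seq2 (full-length transcripts). In addition, 2 bulk libraries of Pdgfra-/Cd36+ cells sorted at E16.5 were used. The CreER driver labels *Pax7*-expressing cells, so muscle nuclei or motor nerves from other sources are outside the label. Each platform and day gives 1 pool of cells (6 pools), no animal was tracked, and the day of harvest cannot be told apart from library or plate.

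Of 3852 kept cells, 694 fell in clusters with early muscle markers (EM-like, such as *Myf5*, *Msc* and *Fgfr4*) and others in 1 cluster with late muscle markers (LM-like, such as *Myog*, *Tnnt2* and *Actc1*). By 10×, EM-like cells made up 16.03% of 1017 cells at E12.5, 22.3% of 964 at E14.5 and 16.49% of 940 at E16.5, and there were 35, 91 and 38 LM-like cells. By Smart-seq2 there were 47, 55 and 59 EM-like and 14, 32 and 27 LM-like cells on the 3 days. Median depth was 3376 UMIs per EM-like and 5169 per LM-like 10× cell, and 677368 and 792132 expected counts per Smart-seq2 cell. The 11 LM markers summed to 671 to 1208 CPM (summed counts scaled to a total of 1000000) in EM-like and 11765 to 15187 CPM in LM-like 10× pools. The 7 EM markers summed higher in LM-like than in EM-like cells of every pool. Among them *Myod1* and *Cdh15* are also found in later muscle cells. Their sums were 738 to 1015 CPM in EM-like and 1001 to 1261 CPM in LM-like 10× pools. By Smart-seq2 they were 1384 to 2572 CPM and 2740 to 3207 CPM. Over all 10× cells *Pax7*, *Myf5* and *Msc* were lower in LM-like cells (9.92, 3.72 and 11.2 against 54.8, 95.3 and 160.8 CPM). *Myod1* was higher (332.5 against 209.97 CPM), and the other EM markers are not given by gene. Of 4 endothelial markers *Cdh5* was at 0 in both classes on both platforms, while the 4 together summed to 5.06 to 25.1 CPM in EM-like and 3.23 to 13.7 CPM in LM-like 10× pools, and to 76.7 to 223.2 CPM and 49.1 to 184.5 CPM by Smart-seq2; their part in the results was not tested. Of 4 motor neuron markers, the 3 in the 10× table summed to 0 to 4.32 CPM in EM-like pools and to 0 in LM-like pools. The 2 in the Smart-seq2 table summed to 0 to 4.72 CPM and 0 to 1.04 CPM. Among them *Chat* was at 0 in both classes by 10× and had counts in 3 EM-like Smart-seq2 cells. The 3 10× libraries share 3 cell barcodes, found in 6 cells.

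The acetylcholine receptor of muscle is a ligand-gated channel of α, β and δ subunits with either γ, the embryonic subunit encoded by *Chrng*, or ε, the adult subunit encoded by *Chrne*. Motor nerves release agrin, which binds LRP4 and thereby activates the receptor kinase MuSK; DOK7 is the cytoplasmic adaptor that MuSK needs, and rapsyn ties the receptors into clusters. Muscle cells make much of this machinery before the nerve arrives, and the subunit genes are known targets of the myogenic factors, which bind E-boxes (CANNTG).

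In the GENCODE vM21 annotation (GRCm38), *Chrnd* (chr1:87190607-87200070, + strand) and *Chrng* (chr1:87204657-87212694, + strand) are neighbours with 4586 bases between them. *Chrna1* (chr2:73563215-73580338, - strand), *Rapsn* (chr2:91035620-91045729, + strand) and *Lrp4* (chr2:91457511-91513779, + strand) lie on chromosome 2. *Chrnb1* (chr11:69784036-69795943, - strand) and *Chrne* (chr11:70614883-70619216, - strand) lie on chromosome 11, *Musk* (chr4:58285960-58374303, + strand) on chromosome 4 and *Dok7* (chr5:35056766-35087839, + strand) on chromosome 5. *Chrne* and *Rapsn* overlap a gene on the opposite strand, and where strand was not used in counting, reads of the overlap cannot be assigned to either.

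The promoters of *Chrna1*, *Chrng*, *Chrnb1*, *Musk* and *Dok7* are shown because these genes were all higher in LM-like cells, and that of *Chrne* because it was not seen in muscle cells here. Each line is the 250 bases before the RefSeq start on GRCm38.p6, read 5′ to 3′ on the strand of the gene, with every CANNTG in capitals.
Chrna1 (chr2:73580339-73580588, - strand): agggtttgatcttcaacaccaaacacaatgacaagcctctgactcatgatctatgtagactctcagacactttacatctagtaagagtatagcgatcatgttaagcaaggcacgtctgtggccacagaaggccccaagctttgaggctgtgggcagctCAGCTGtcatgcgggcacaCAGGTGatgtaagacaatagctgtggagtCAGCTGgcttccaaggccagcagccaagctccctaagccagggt
Chrng (chr1:87205561-87205810, + strand): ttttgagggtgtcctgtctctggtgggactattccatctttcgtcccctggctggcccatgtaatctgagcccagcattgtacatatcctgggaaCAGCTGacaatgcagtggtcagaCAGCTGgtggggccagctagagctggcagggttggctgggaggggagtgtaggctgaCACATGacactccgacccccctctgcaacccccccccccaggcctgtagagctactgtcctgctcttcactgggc
Chrnb1 (chr11:69795938-69796187, - strand): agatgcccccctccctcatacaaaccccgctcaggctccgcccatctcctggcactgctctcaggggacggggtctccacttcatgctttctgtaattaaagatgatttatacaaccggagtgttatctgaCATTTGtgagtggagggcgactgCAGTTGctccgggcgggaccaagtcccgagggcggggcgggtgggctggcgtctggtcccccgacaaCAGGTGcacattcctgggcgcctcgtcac
Musk (chr4:58285712-58285961, + strand): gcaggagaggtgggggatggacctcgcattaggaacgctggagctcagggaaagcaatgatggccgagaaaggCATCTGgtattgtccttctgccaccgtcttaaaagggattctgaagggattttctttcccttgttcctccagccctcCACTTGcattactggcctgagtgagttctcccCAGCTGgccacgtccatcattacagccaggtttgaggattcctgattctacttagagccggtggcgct
Dok7 (chr5:35056516-35056765, + strand, the first of 2 RefSeq starts): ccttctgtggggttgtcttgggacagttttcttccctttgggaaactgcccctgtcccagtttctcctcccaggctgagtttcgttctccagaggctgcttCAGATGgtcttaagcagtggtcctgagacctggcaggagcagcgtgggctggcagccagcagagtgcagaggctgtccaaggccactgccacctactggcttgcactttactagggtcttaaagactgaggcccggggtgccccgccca
Chrne (chr11:70619195-70619444, - strand): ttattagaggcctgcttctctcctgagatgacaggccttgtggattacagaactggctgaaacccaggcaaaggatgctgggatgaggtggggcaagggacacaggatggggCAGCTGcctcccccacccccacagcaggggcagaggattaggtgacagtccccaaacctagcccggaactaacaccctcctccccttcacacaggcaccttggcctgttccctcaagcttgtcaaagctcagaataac

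CANNTG reads the same on both strands. Its form CAGCTG is counted within it, as is the form CAGGTG, which reads CACCTG on the other strand. The *Chrna1* window held 3 copies, CAGCTG beginning 92 and 44 bases before the start and CAGGTG 73 bases before it. The *Chrng* window also held 3, of which 2 were CAGCTG and the one nearest the start, at 75 bases, was CACATG. Each of the windows of *Musk* and *Chrnb1* held 3 of different letters, of which the nearest was CAGCTG at 68 bases for *Musk* and CAGGTG at 29 bases for *Chrnb1*. The *Dok7* window held 1 copy, CAGATG, and the window of its other start held 0. The *Chrne* window held 1 copy of CAGCTG, and 1 N-box (CCGGAA, or TTCCGG on the other strand) at 76 bases. Among 32851 RefSeq promoter windows of the same length, 66.2% held a CANNTG with a median of 1, 13.0% held CAGCTG, 17.2% held CAGGTG or CACCTG and 12.0% held an N-box. These matches describe the letters of the windows, and binding was not measured.

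Receptor subunits were higher in LM-like than in EM-like cells, by far the most for *Chrna1*, the subunit with the main face of the acetylcholine-binding site. By 10×, *Chrna1* stood in EM-like cells at 8.63, 29.8 and 14.3 CPM (values are in the order E12.5, E14.5, E16.5 throughout), and in LM-like cells at 235.1, 329.8 and 233.7 CPM. By Smart-seq2 it stood at 10.8, 58.1 and 59.9 CPM in EM-like and 706, 1131 and 1227 CPM in LM-like cells. The levels of the classes did not overlap on either platform, and the ratio of LM-like to EM-like was 27.2, 11.1 and 16.3 by 10× and 65.3, 19.5 and 20.5 by Smart-seq2 over the 3 days. In the fit within 5 pools the difference was 4.35 on the log2 scale (SE 0.23, edgeR quasi-likelihood test, adjusted p = 1.3e-13).

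*Chrng*, the embryonic subunit, followed. Its 10× level was 4.32, 9.00 and 7.17 CPM in EM-like and 43.5, 53.4 and 41.2 CPM in LM-like cells, and its Smart-seq2 level 8.11, 23.2 and 31.4 CPM against 461.2, 345.7 and 223.7 CPM. All LM-like pools lay above all EM-like pools of their platform (log2 difference 3.41, SE 0.31, edgeR adjusted p = 2.6e-09). *Chrnd*, the δ subunit, stood at 2.16, 4.50 and 10.8 CPM in EM-like and 0, 22.6 and 27.5 CPM in LM-like 10× cells, where 0 of 35 cells at E12.5 allows up to 26.1 CPM. By Smart-seq2 it stood at 5.11, 24.2 and 45.7 CPM against 111.4, 285.5 and 281.5 CPM, so that the classes overlapped by 10× and not by Smart-seq2 (log2 difference 3.1, SE 0.35, edgeR adjusted p = 1.1e-07).

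*Chrnb1*, the β subunit, differed least among the subunits and was the one most seen in EM-like cells. It stood at 12.95, 19.1 and 35.9 CPM in EM-like and 52.2, 37.2 and 68.7 CPM in LM-like 10× cells, and at 35.7, 92.9 and 186.8 CPM against 686, 418.7 and 423.02 CPM by Smart-seq2. The lowest LM-like level was just above the highest EM-like level by 10×, and the log2 difference was 1.71 (SE 0.26, edgeR adjusted p = 1.3e-05).

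**Figure D1:**
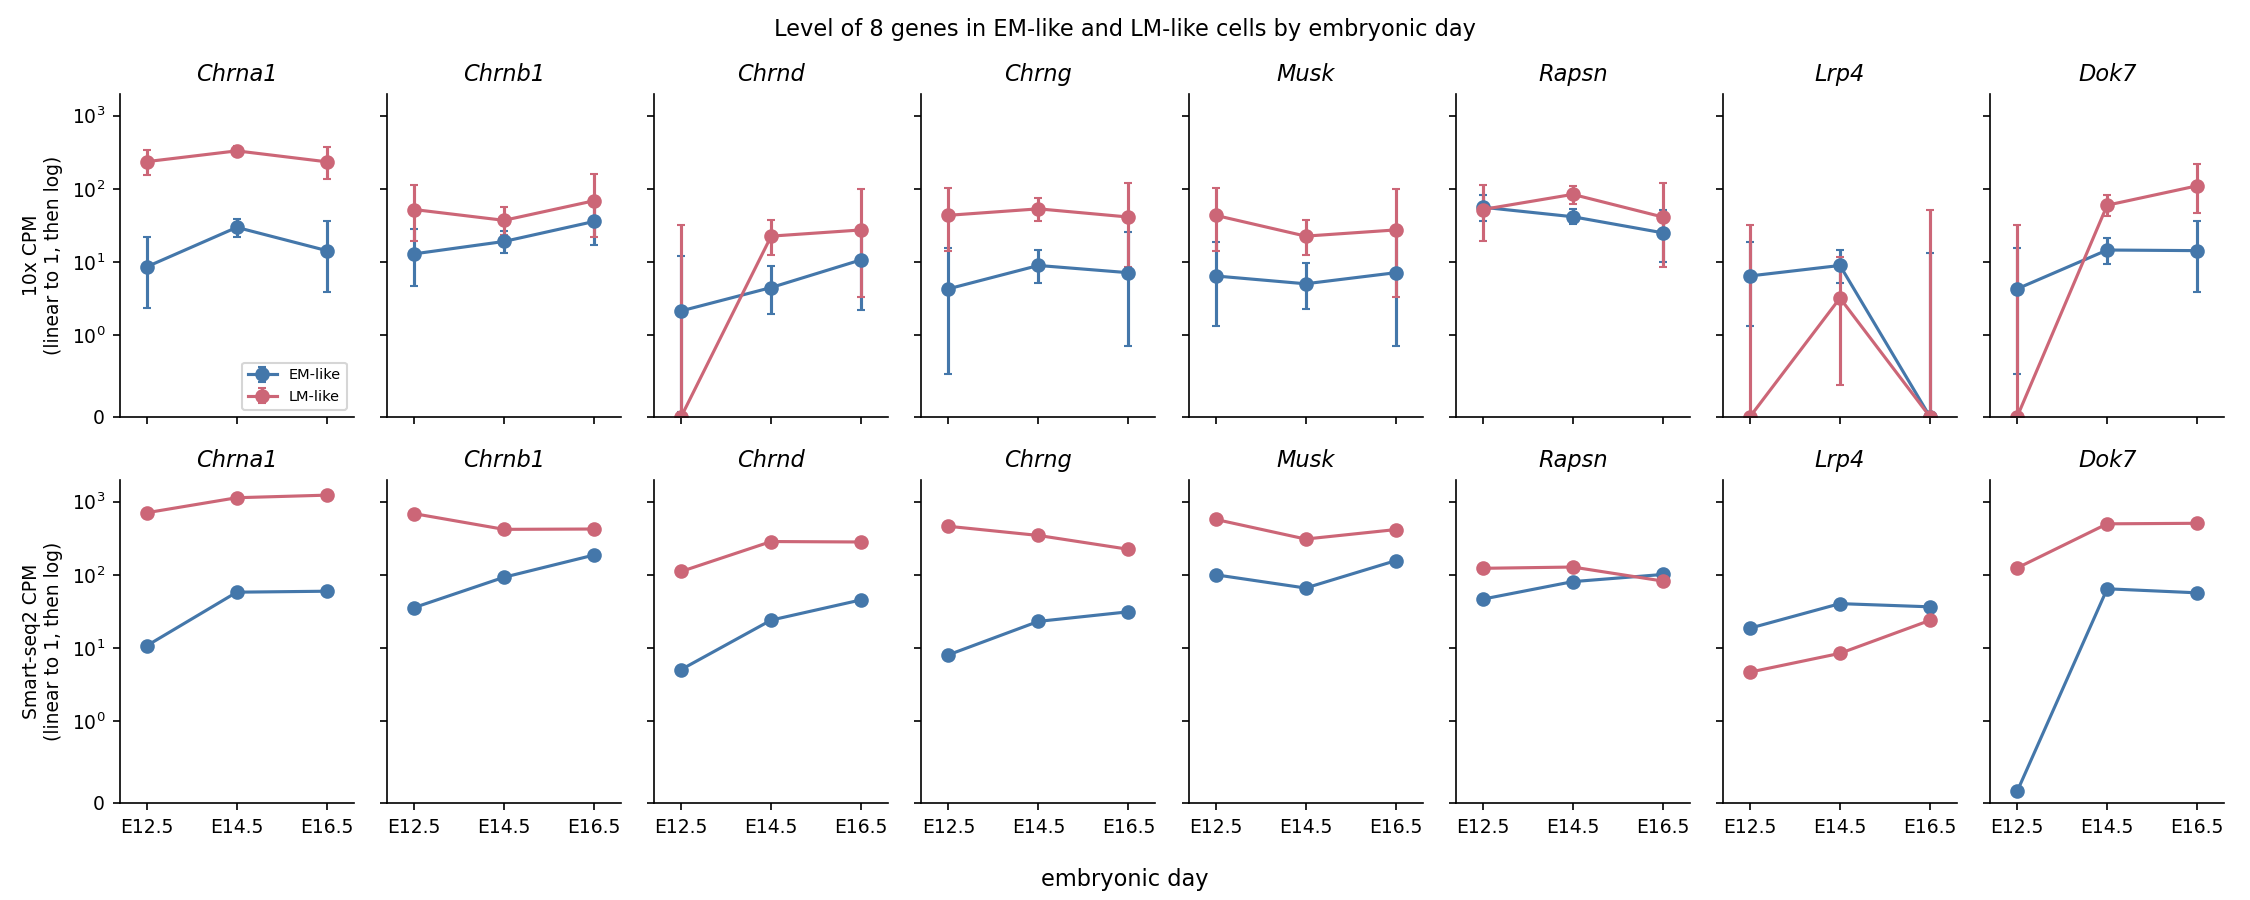
CPM of summed counts (linear to 1, then log scale) of 8 genes in EM-like (blue) and LM-like (red) cells on each day, by 10× (upper row, bars are 95% Poisson intervals and cover counting error only) and Smart-seq2 (lower row, no interval, 1 sum per point). *Chrna1* and *Chrng* lie higher in LM-like cells in all 6 pools, while *Rapsn* and *Lrp4* do not.

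Of the clustering genes, *Musk*, the receptor kinase, stood at 6.48, 5.06 and 7.17 CPM in EM-like and 43.5, 22.6 and 27.5 CPM in LM-like 10× cells, on 2 to 14 UMIs a pool. By Smart-seq2 it stood at 100.5, 66.2 and 156.5 CPM against 573, 308.7 and 415.6 CPM. The classes did not overlap on either platform, although *Musk* was already plain in EM-like cells (log2 difference 2.17, SE 0.27, edgeR adjusted p = 5.0e-07). *Dok7*, the adaptor of MuSK, stood at 4.32, 14.6 and 14.3 CPM in EM-like and 0, 59.8 and 109.997 CPM in LM-like 10× cells, and at 0.141, 64.7 and 56.98 CPM against 124.5, 498.2 and 506.3 CPM by Smart-seq2. It was low at E12.5 in both classes relative to the later days, and the log2 difference between classes was 3.00 (SE 0.29, edgeR adjusted p = 8.2e-09).

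*Rapsn*, the scaffold under the receptor, did not pass the test. It stood at 56.1, 41.6 and 25.1 CPM in EM-like and 52.2, 84.1 and 41.2 CPM in LM-like 10× cells, and at 46.7, 81.01 and 101.4 CPM against 123.1, 128.1 and 82.5 CPM by Smart-seq2. The classes overlapped on both platforms, and the ratio of LM-like to EM-like was 0.931 at E12.5 and 2.02 at E14.5 by 10×, and 2.64, 1.58 and 0.813 by Smart-seq2 (log2 difference 0.58, SE 0.26, edgeR adjusted p = 0.11). Without the Smart-seq2 pool of E16.5 it was called higher (0.81, edgeR adjusted p = 0.048). *Lrp4*, the agrin receptor, pointed the other way. It stood at 6.48, 9.00 and 0 CPM in EM-like and 0, 3.23 and 0 CPM in LM-like 10× cells, with 2 UMIs over all LM-like cells, and at 18.8, 40.6 and 36.7 CPM against 4.72, 8.51 and 24.03 CPM by Smart-seq2 (log2 difference -1.22, SE 0.59, edgeR adjusted p = 0.14). Its ratio of LM-like to EM-like by Smart-seq2 was 0.252, 0.21 and 0.655 over the days.

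*Chrne*, the adult ε subunit, had 0 UMIs in the EM-like and the LM-like 10× cells, which allows up to 1.19 and 3.72 CPM. With cells as the unit, this allows a share of up to 0.563% of EM-like and 1.83% of LM-like cells with a UMI. The only UMI among named classes was in 1 of the cells with dermal fibroblast markers (DF-like, 16.36% of 2921 kept 10× cells, 0.689 CPM). For comparison, *Chrng* had 41 UMIs in the same LM-like cells.

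In the test over all genes, 6 of the 8 members tested were higher in LM-like cells and 0 were lower, beside 11.2% of 10162 genes called higher and 12.6% called lower. The median log2 difference of the 8 was 2.59, beside 0.05 over all genes. Members and partner genes took no part in forming the clusters, apart from the list of myogenic regulators, which was kept. Classes and levels come from the same cells. The p-values thus describe genes that follow the split of these cells, and are not a contrast chosen apart from them. The 6 were called under all 15 alternatives tried in which they were fitted (*Chrnd* could not be fitted in 10× pools alone). With 1 sum per class and pool and the pool as a block, the p-values rest on how the class difference varied among pools. That spread is estimated with help from other genes, and it is not a spread between animals.

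**Figure D2:**
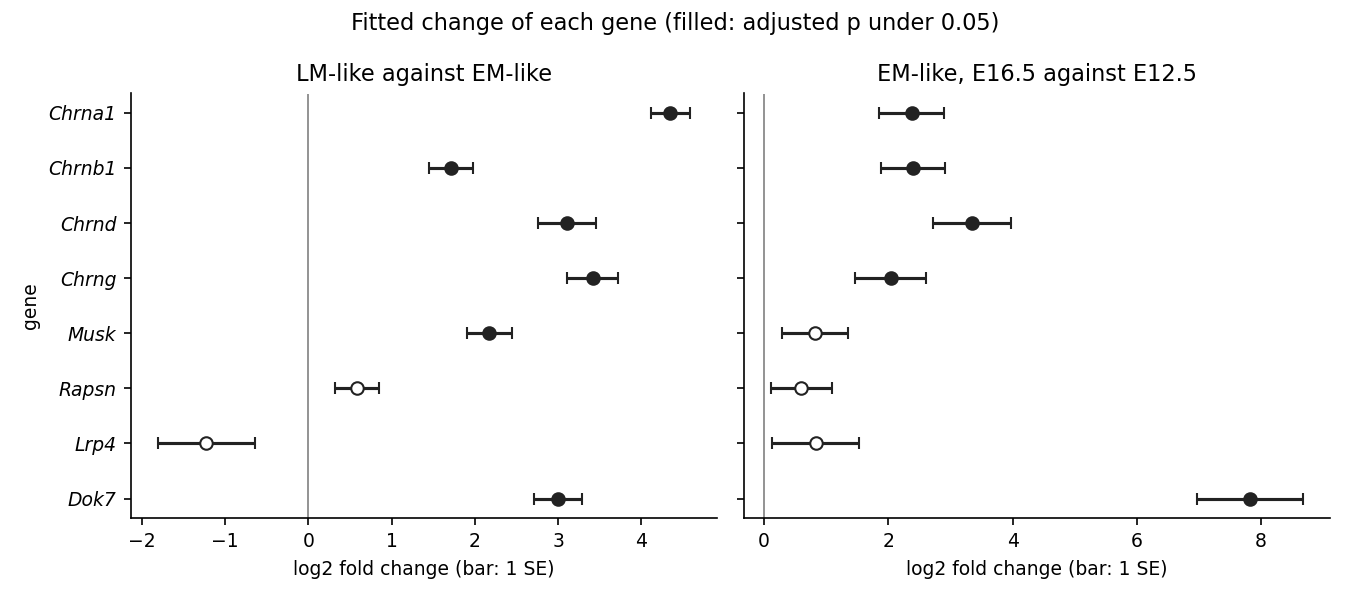
Fitted log2 fold change (points, with bars of 1 SE) of 8 genes for LM-like against EM-like cells (left) and for EM-like cells at E16.5 against E12.5 (right), filled where the edgeR adjusted p was under 0.05. *Chrna1* has the largest class difference (4.35), and the *Dok7* value on the right rests on 5 counts at E12.5.

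Levels of different genes were compared by Smart-seq2 alone, per kb of their longest coding transcript, since its reads cover whole transcripts. In LM-like cells the level was 250.1 CPM per kb for *Chrna1*, 214.7 for *Chrnb1*, 159.01 for *Dok7*, 115.6 for *Chrng*, 113.3 for *Musk*, 87.003 for *Chrnd*, 69.4 for *Rapsn* and 1.68 for *Lrp4*. In EM-like cells the order was different, with 55.9 CPM per kb for *Chrnb1*, 51.9 for *Rapsn*, 31.5 for *Musk*, 18.3 for *Dok7*, 11.6 for *Chrna1*, 10.003 for *Chrnd*, 8.61 for *Chrng* and 4.46 for *Lrp4*. Over all days *Chrna1* thus ranked highest of the 8 in LM-like cells, while 4 of the others stood above it in EM-like cells. By day the LM-like rank held at E14.5 (257.9 CPM per kb) and E16.5 (279.6), but at E12.5 *Chrna1* (160.9) stood below *Chrnb1* (318.5), *Musk* (167.4) and *Chrng* (165.9). In EM-like cells at E12.5 *Dok7* (0.0506 CPM per kb) stood below *Chrna1* (2.46). Neighbours in these orders were not tested against each other, and *Dok7* and *Chrng* in LM-like cells came to 112.4 and 100.2 CPM per kb when all coding exons were merged.

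Detection per cell showed the same split. In Smart-seq2 LM-like cells *Chrna1*, *Chrnb1* and *Musk* had counts in 73 of 73 cells (95% exact binomial interval 95.1 to 100%), *Chrnd* in 66, *Dok7* in 61, *Chrng* in 58, *Lrp4* in 53 and *Rapsn* in 51. In EM-like cells *Musk* had counts in 77.6% of cells, *Chrnb1* in 77.02%, *Lrp4* in 73.3%, *Rapsn* in 66.5%, *Chrna1* in 36.6%, *Chrnd* in 29.2%, *Chrng* in 27.95% and *Dok7* in 23.6%. In DF-like Smart-seq2 cells (13.1% of 931 kept cells), which should lack the receptor and whose median depth was 979567 counts, *Chrna1* had counts in 32% of cells at 5.70 CPM and *Lrp4* in 65.6%, while *Rapsn* (1.64%), *Chrng* (0.820%) and *Dok7* (3.28%) were seldom seen. The share of EM-like cells with *Chrna1* at E12.5 was 17.02% at a median depth of 222509 counts, and its level there (10.8 CPM) was above that in DF-like cells, so no order is read from the shares. Whether the *Lrp4* counts of DF-like cells are background was not tested. With each cell thinned to 100000 counts, *Chrna1* was in 23.9% of EM-like and 100% of LM-like cells, and *Rapsn* in 65.8% and 68.5%.

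By 10× the shares were far smaller. *Chrna1* had a UMI in 7.5% of EM-like (5.42 to 10.1%) and 64.02% of LM-like cells (56.2 to 71.4%), beside 1.05% of DF-like cells with a median of 1735 UMIs. With each cell thinned to 1000 UMIs the shares were 1.75% and 23.5%. *Rapsn* had a UMI in 16.51% and 23.2%, or 4.09% and 4.94% after thinning. The LM-like share of *Chrna1* was 54.3%, 83.5% and 26.3% by day, and after thinning 25.7%, 24.2% and 19.4%; the unthinned shares followed depth.

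A receptor needs several subunits in 1 cell. By Smart-seq2, counts of all 4 subunits (*Chrna1*, *Chrnb1*, *Chrnd* and *Chrng*) were found in 55 of 73 LM-like cells (75.3%, 63.9 to 84.7%) and in 15 EM-like cells (9.32%, 5.31 to 14.9%). By day the LM-like shares were 78.6%, 75.0% and 74.1%, and the EM-like shares 2.13%, 12.7% and 11.9%. None of the 73 LM-like cells had fewer than 2 of the 4, while 26 EM-like cells had none and 56 had 1. All 8 members were found in 27 of 73 LM-like and 3 EM-like cells. *Musk*, *Rapsn* and *Dok7* together were found in 43 LM-like and 21 EM-like cells. By 10×, 81.8% of EM-like and 29.9% of LM-like cells had no subunit UMI, and 0 cells had all 4.

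**Figure D3:**
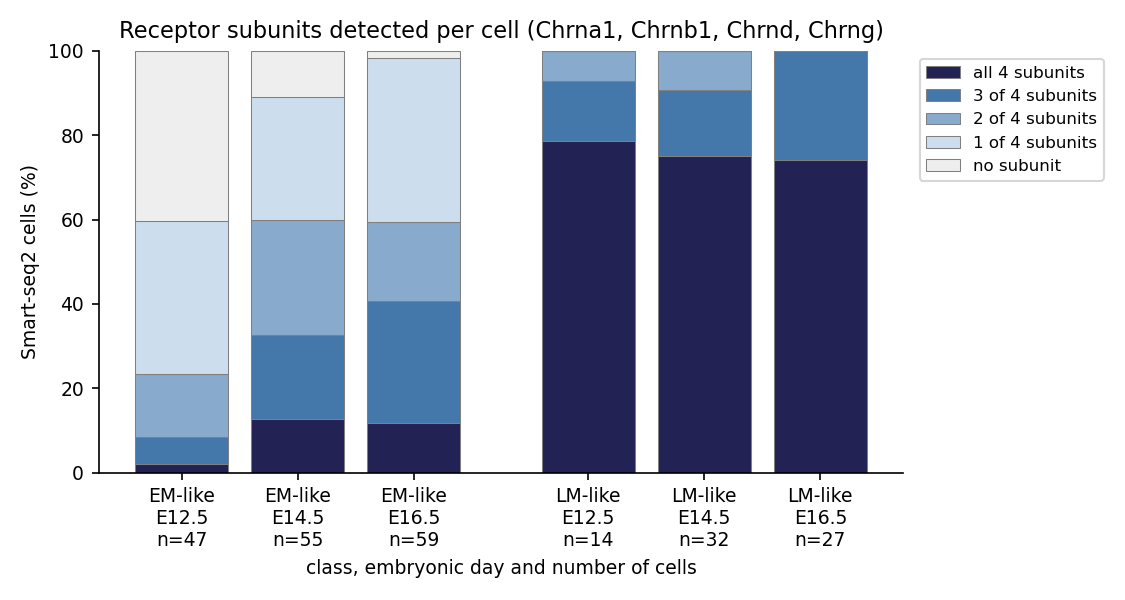
Share of Smart-seq2 cells (%) with counts of 0 to 4 of the 4 subunit genes *Chrna1*, *Chrnb1*, *Chrnd* and *Chrng*, as stacked bars for EM-like and LM-like cells of each day, with the number of cells below. All 4 were found in 74.1 to 78.6% of LM-like and 2.13 to 12.7% of EM-like cells.

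Across the other classes the members were low, except *Lrp4*. By 10×, *Chrna1* stood at 3.45 CPM in DF-like cells, 1.56 CPM in cells with mesenchymal progenitor markers (MP-like), 1.72 CPM in neuron-like cells and 0 CPM in brown adipocyte-like cells. *Lrp4* was highest in neural progenitor-like cells, with 263.2 CPM by 10× (12 UMIs in 16 cells, 95% Poisson interval 135.998 to 459.8 CPM) and 161.3 CPM by Smart-seq2 (9 cells). It also stood at 57.9 and 52.3 CPM by Smart-seq2 in 2 unnamed clusters, above its 35.4 CPM in EM-like cells. *Dok7* stood at 9.48 CPM in neuron-like Smart-seq2 cells.

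**Figure D4:**
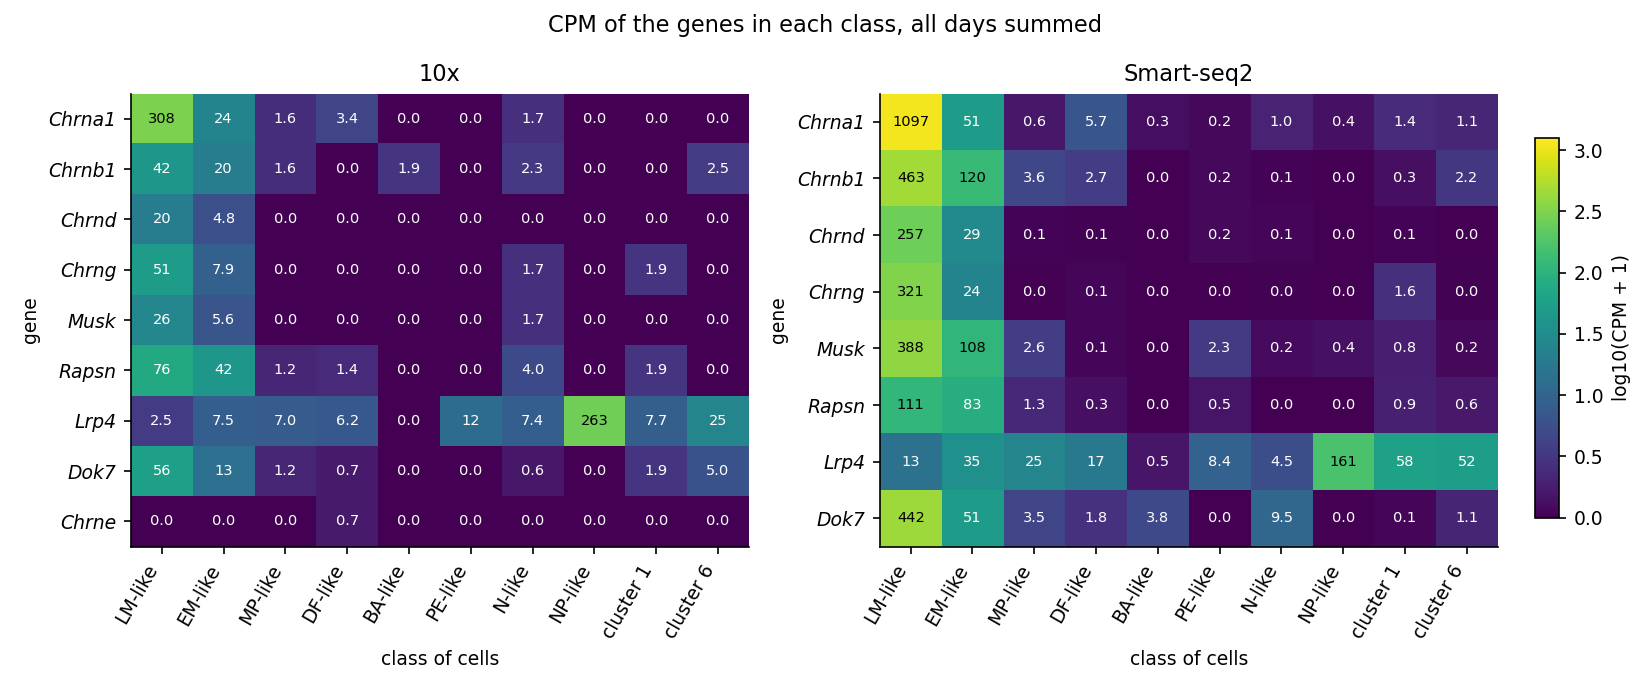
CPM (numbers) and log10(CPM + 1) (colour) of the genes in each class of cells over all days, by 10× (left) and Smart-seq2 (right, without *Chrne*), for muscle (LM-like, EM-like), mesenchymal progenitor (MP-like), dermal fibroblast (DF-like), brown adipocyte (BA-like), pericyte (PE-like), neuron (N-like) and neural progenitor (NP-like) classes and 2 unnamed clusters. The receptor subunits are high in LM-like cells (*Chrna1* 307.6 CPM by 10× and 1097 CPM by Smart-seq2), and *Lrp4* is highest in neural progenitor-like cells (263.2 and 161.3 CPM).

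Within EM-like cells, 5 of 8 members were called higher at E16.5 than at E12.5 and 0 lower, beside 4.9% of 11866 genes higher and 4.28% lower. The log2 difference was 2.37 for *Chrna1* (SE 0.52, edgeR adjusted p = 0.00025), 2.40 for *Chrnb1* (SE 0.52, adjusted p = 0.00017), 3.35 for *Chrnd* (SE 0.63, adjusted p = 6.6e-06) and 2.04 for *Chrng* (SE 0.57, adjusted p = 0.0075). The Smart-seq2 pools carried this, with ratios of E16.5 to E12.5 of 5.55, 5.23, 8.94 and 3.87. The 10× pools rest on few UMIs, with ratios of 1.66 for *Chrna1* (4 UMIs on each day) and 2.77 for *Chrnb1* (6 and 10 UMIs). Without the Smart-seq2 pool of E12.5 (47 cells) none of the 8 was called by edgeR, with 47 genes called in all and 579 at an unadjusted p under 0.05, and without that of E16.5 *Dok7* alone was.

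*Dok7* in EM-like cells is given by its levels, because its fitted change rests on 3 Smart-seq2 counts and 2 UMIs at E12.5. At that day 2 of 47 Smart-seq2 cells had a count, against 17 of 55 at E14.5 and 19 of 59 at E16.5, with 3591 and 2865 counts. It was called by edgeR and not by DESeq2. *Musk* (log2 difference 0.82, adjusted p = 0.404), *Rapsn* (0.60, adjusted p = 0.55) and *Lrp4* (0.83, adjusted p = 0.57) did not pass the edgeR test, although *Rapsn* was called higher without the 10× pool of E16.5. For *Rapsn* the platforms went opposite ways, with a ratio of E16.5 to E12.5 of 0.447 by 10× and 2.17 by Smart-seq2.

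Beside these changes, the summed level of the 11 LM markers in EM-like cells was 383.8, 2154 and 2767 CPM by Smart-seq2, and 671, 1208 and 1037 CPM by 10×. The EM-like cells also came from different clusters. Of those cells, 1 cluster held 96.9% at 10× E12.5, 94.8% at 10× E16.5 and 89.4% at Smart-seq2 E12.5, and the other held 99.1% at 10× E14.5, 92.7% at Smart-seq2 E14.5 and 100% at Smart-seq2 E16.5. The part of either in the differences between days was not tested.

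EM-like cells with a count of *Myog*, the factor that drives differentiation and a marker used here to name LM-like cells, were described apart from those without. By Smart-seq2, 54 cells (33.5%) had a *Myog* count and the others did not (17 of 47, 19 of 55 and 18 of 59 had one by day), with median depths of 639641 and 677368. *Chrna1* stood at 140.03 CPM with and 10.2 CPM without *Myog*, *Dok7* at 149.1 and 5.87 CPM, *Chrnd* at 62.7 and 14.3 CPM and *Chrng* at 49.3 and 12.3 CPM. *Musk* (157.1 and 85.1 CPM) and *Chrnb1* (167.95 and 98.8 CPM) differed less. *Rapsn* went the other way, at 54.8 CPM with and 96.4 CPM without, as did *Lrp4* at 22.3 and 41.4 CPM.

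By Smart-seq2 the order held within days for most members. By 10× *Musk* was higher with *Myog* in 3 of 3 pools, *Chrnb1*, *Chrnd*, *Chrng* and *Dok7* each in 2 of 3, and *Lrp4* in 1 of 3. At 10× E16.5, for example, *Chrnb1* stood at 19.3 CPM with and 39.7 CPM without *Myog*, from 1 and 6 cells with a UMI. *Chrna1* was higher with *Myog* in 3 of 3 Smart-seq2 pools (29.9 against 2.15 CPM, 179.3 against 7.56 CPM and 145.5 against 16.8 CPM) and in 3 of 3 10× pools. *Dok7* was higher in 3 of 3 Smart-seq2 pools, although at E12.5 it was near 0 in both (0.15 and 0.136 CPM). *Rapsn* was lower with *Myog* in 3 of 3 10× pools and in 2 of 3 Smart-seq2 pools. Cells without *Myog* at E14.5 and E16.5 held more *Rapsn* (95.98 and 120.7 CPM) than cells with it (45.2 and 63.2 CPM). By 10× the cells with *Myog* were deeper (median 6824 against 2778 UMIs), and *Chrna1* stood at 55.8 against 6.23 CPM and *Rapsn* at 29.5 against 49.8 CPM. This is a description of cells that share pools, with no test.

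**Figure D5:**
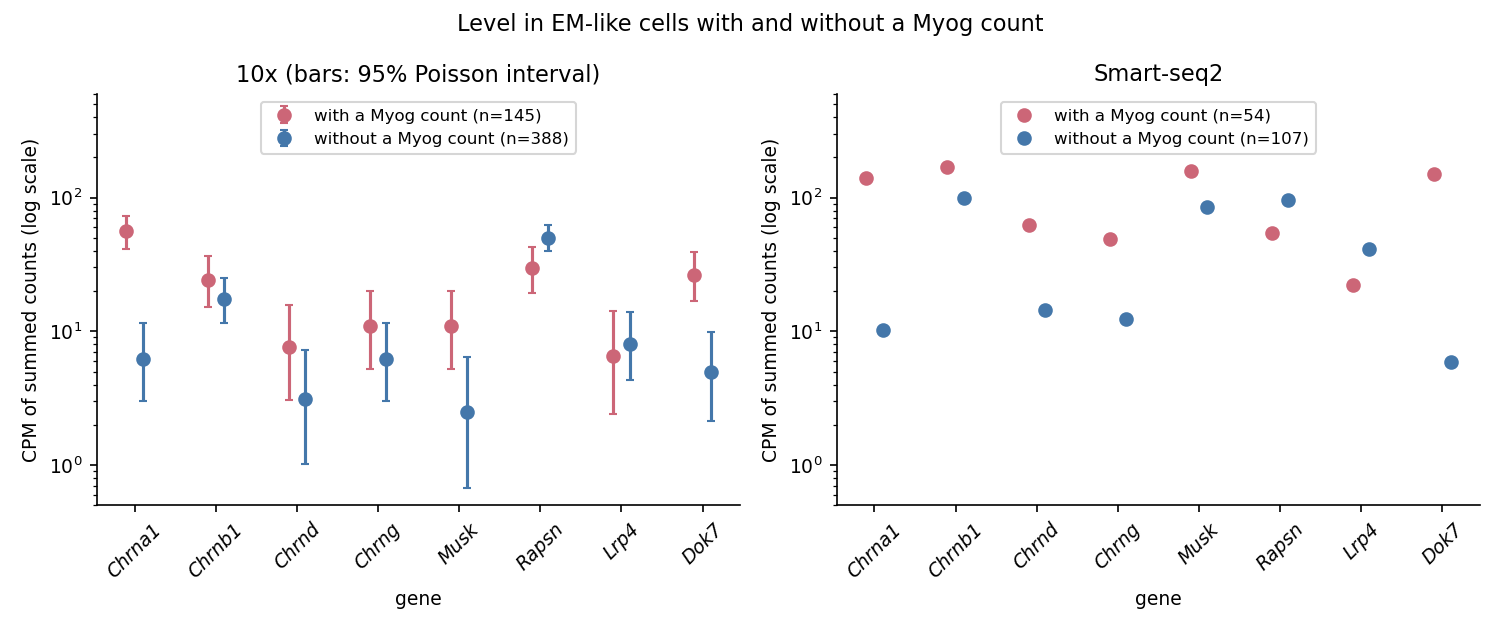
CPM of summed counts (log scale) of 8 genes in EM-like cells with (red) and without (blue) a *Myog* count, by 10× (27.2% and 72.8% of cells, bars are 95% Poisson intervals) and Smart-seq2 (33.5% and 66.5% of cells, no interval). *Chrna1* and *Dok7* lie far apart, and *Rapsn* lies lower in cells with *Myog*.

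Within LM-like cells, in a fit with little power on simulated data, 0 of 8 members were called between E12.5 and E16.5 by edgeR and 0 by DESeq2, beside 0.0506% of 11866 genes higher and 0.244% lower; 825 genes had an unadjusted p under 0.05. The Smart-seq2 sum of E12.5 held only 14 cells and was left out of this fit, so it rests on the 10× pool for that day. Single-cell Smart-seq2 values show what this leaves out. *Dok7* had counts in 5 of 14 LM-like cells at E12.5, 29 of 32 at E14.5 and 27 of 27 at E16.5, with medians of 0, 350.9 and 489.9 CPM per cell. By 10× it had 0 UMIs in 35 cells at E12.5, 37 UMIs in 91 cells at E14.5 and 8 UMIs in 38 cells at E16.5. The last level was 4.21 times the limit of 26.1 CPM that 3 UMIs set at E12.5. This ratio leaves out the counting error of the 8 UMIs. Its adjusted p in the edgeR fit was 0.096. It was called higher with sums of at least 10 cells, together with *Chrnd*, and without the 10× pool of E16.5.

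Other members of LM-like cells varied in other ways. *Chrnd* had counts in 11 of 14 cells at E12.5 and 27 of 27 at E16.5 (medians of 120.05 and 240.2 CPM per cell). *Chrng* had counts in 13 of 14 cells at E12.5, 25 of 32 at E14.5 and 20 of 27 at E16.5, with medians of 367.7, 164.2 and 136.6 CPM per cell. *Chrna1* ranged over cells from 34.1 to 1304 CPM (median 332.6) at E12.5, 195.3 to 2689 (median 1165) at E14.5 and 188.8 to 2326 (median 1135) at E16.5. *Musk* was in every cell on all days, with medians of 550, 310.4 and 326.02 CPM. The ranges of the days overlapped for all of these.

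The class difference itself was not found to change between E12.5 and E16.5 for any of the 8 by edgeR or DESeq2, beside 0.0627% of 11169 genes with a larger and 0.143% with a smaller difference at E16.5 (645 genes at an unadjusted p under 0.05). With sums of at least 10 cells, *Chrna1*, *Chrnb1*, *Chrng* and *Dok7* were called smaller at E16.5 and 4.42% of all genes tested were called. The level ratios of *Chrng* (56.8, 14.9 and 7.13 over the days by Smart-seq2) and *Chrnb1* (19.2, 4.51 and 2.26) show the values behind this.

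Other genes of the junction were read beside the 11.2% of all genes called higher and 12.6% called lower in LM-like cells. Of 28 tested postsynaptic partners, 6 were called higher and 2 lower (median log2 difference 0.12). Higher were *Dtna*, a dystrophin-associated protein (log2 difference 1.85), *Erbb3*, a neuregulin receptor (1.78), the cytolinkers *Plec* (1.76) and *Macf1* (1.19), the syntrophin *Sntb1* (1.52) and *Prkar1a* (0.78). Lower were the laminin chain *Lama4* (-3.89) and *Agrn*, which encodes agrin (-1.71). Of 9 tested genes of membrane excitability, 7 were called higher and 0 lower (median 3.76), such as *Atp2a1*, the calcium pump of the sarcoplasmic reticulum (5.20), *Casq2*, a calcium buffer (6.98), *Stac3*, a partner of the calcium channel (4.53), and its subunit *Cacng1* (7.63).

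Among neuronal receptor subunits only 2 of 11 were tested. *Chrna4* was higher in LM-like cells (log2 difference 4.99, SE 0.495, edgeR adjusted p = 1.4e-08). It stood at 170.4 CPM against 4.397 CPM by Smart-seq2 and at 7.44 against 1.19 CPM by 10×, the latter on 6 and 3 UMIs. *Chrna7* was listed at 15.2 CPM in EM-like and 0 in LM-like Smart-seq2 cells, and was called lower. Of 10 tested myogenic regulators, 3 were called higher and 5 lower. Of these *Mef2c*, a partner of the myogenic factors (4.34), and *Id2* (-1.95) and *Id3* (-1.23), their inhibitors, were no class markers. This list was not left out of clustering, so its genes could take part in forming the classes in which they were tested.

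Between days in EM-like cells, beside the 4.9% of all genes called higher and 4.28% lower, 5 of 32 postsynaptic partners were called higher (median 0.27), among them *Lama4* (2.66), *Lama5* (2.28), *Plec* (1.66) and *Dag1*, which encodes dystroglycan (2.25), and 3 lower, namely *Erbb3* (-3.51), *Erbb2* (-2.89) and *Abl1* (-1.62). *Erbb3* by Smart-seq2 stood at 272.8, 60.98 and 17.4 CPM. Of 12 genes of excitability 2 were higher, *Stac3* (3.02) and the sodium channel *Scn4a* (4.39), and 2 were lower, *Cacna2d1* (-1.63) and *Cacng1*, which had 0 counts at E16.5. Of 10 myogenic regulators 3, all class markers, were higher, and 0 of 3 neuronal subunits were called. All of these come from the fit that called 47 genes without the Smart-seq2 pool of E12.5. For LM-like days and for the change of the class difference, 0 genes of any of the 4 lists were called by edgeR.

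Over 25 sums of a class in a pool (14 by 10× and 11 by Smart-seq2, centred within platform, 14966 genes), the genes whose level on the log2(CPM + 1) scale ran most like *Chrna1* were *Chrng* (Pearson's r = 0.964), *Ttn* (0.953), *Gatm* (0.952), *Tnnt2* (0.951) and *Mymx* (0.951). Those most like *Chrng* were *Asb2* (0.972), *Mymk* (0.969), *Myog* (0.969), *Lsm6* (0.966) and *Actc1* (0.965). With *Chrna1*, r was 0.887 for *Chrnb1*, 0.880 for *Musk*, 0.872 for *Rapsn*, 0.859 for *Chrnd*, 0.770 for *Dok7* and -0.08 for *Lrp4*. These sums share pools and come from muscle and other classes, so a high r need not mark LM-like against EM-like cells. *Rapsn*, with r of 0.872, did not pass the test between those classes.

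The 2 bulk libraries of sorted Pdgfra-/Cd36+ cells, technical duplicates by the study's methods, gave low levels. *Chrna1* stood at 9.17 and 6.95 CPM, *Lrp4* at 2.94 and 2.67 CPM, *Dok7* at 1.49 and 2.64 CPM, *Musk* at 1.21 and 1.34 CPM, and the other 5 genes below 0.41 CPM. Some muscle markers were present there as well, with *Actc1* at 6.03 and 8.23 CPM, while *Myod1* had 0 and 7 counts. In bulk, fewer cells of a type and less RNA per cell cannot be told apart.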

How the data were processed

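Counts of Pax7-lineage cells were used in the form the authors deposited them. The 10× file gives UMI counts per gene (Cell Ranger, mm10, per the labels), the Smart-seq2 file expected counts per gene (estimated by the authors with kallisto 0.44.0 and summed per gene with tximport), and the bulk file read counts per gene, none of them normalized by the authors. For the bulk libraries the aligner or counter is not given in the sources used here. Of 18 bulk columns 16 carry names that do not tell Thy1+ from Thy1- cells and were not used, so the 4 planned bulk comparisons were not made.

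Of 3916 cells, 3852 with a *YFP* count, at most 8% mitochondrial counts, at least 4000 genes (Smart-seq2) and at most 15000 UMIs (10×) were kept. Median totals per pool were 1607.5 to 5930 UMIs by 10× and 393416 to 829590 counts by Smart-seq2. Platforms were joined and clustered with Seurat 5.3.0 (2000 variable genes, 30 components, resolution 0.8, 17 clusters), in place of the model the authors used. This left out 60 genes of the members and of the partner lists other than the myogenic regulators. Clusters were named from marker lists (mean z-score of at least 0.8, at least 3 markers each in at least 5% of cells). Doublets called with Scrublet (scanpy 1.11.5; 8, 8 and 6 cells by day) were kept.

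For each class, counts were added up within a pool (1 platform and day), sums of expected counts were rounded to whole numbers, and sums of under 20 cells were left out of tests. Classes were compared with edgeR 4.0.16 in R 4.3.3 (filter on low counts, TMM, quasi-likelihood test, adjusted p under 0.05 over all genes), with the pool as a block (10 sums, 4 residual degrees of freedom) or, between days, in 1 fit with class, day and platform terms (11 sums, 3 degrees of freedom). The change of the class difference was tested as an interaction over 10 sums with 2 degrees of freedom. On simulated data the class fit recovered most changed genes, with more false calls than its nominal rate, and the EM-like day fit missed many of the smaller changes. The fits of LM-like days and of the change of the class difference called few or none of the changed genes, so a count of 0 there is not evidence of no change. Shares carry exact 95% binomial (Clopper-Pearson) and 10× CPM exact Poisson intervals, and a count of 0 the limit of 3 counts; these cover counting error only. For equal depth, cells were thinned to 1000 UMIs or 100000 counts, leaving out shallower cells. CPM are scaled to all counts of the cells summed. GENCODE vM21 gave positions and lengths and RefSeq the promoters, which 6 members matched.

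Named partner genes are those past the threshold with the largest changes, at most 4 in each direction per list and comparison; *Macf1*, *Prkar1a* and *Id3* were named after their values were seen. The members and the lists were chosen with earlier results of these data known. Alternatives were resolutions of 0.4 and 1.2, the listed genes kept in clustering, platforms clustered alone or tested alone, doublets removed, DESeq2 1.42.0, no filter, sums of at least 10 cells, 1 class per fit and each pool left out in turn.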

Additional observations from a re-analysis of the deposited data

Results flagged for a closer look

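Counts of 7 of the 9 genes were above the 3 counts set as a floor in both bulk libraries of sorted Pdgfra-/Cd36+ cells, which enter no comparison and are technical duplicates by the study's methods, so that their likeness is no biological replication. Libraries 1 and 2 held 24862787 and 32947290 counts in all. At that depth the floor is low, and the share of all genes above it was not worked out. The number of genes above it therefore does not set these genes apart from others. As counts scaled to a total of 1000000 (CPM), *Chrna1* stood at 9.17 and 6.95 in libraries 1 and 2, *Lrp4* at 2.94 and 2.67 (73 and 88 counts), *Dok7* at 1.49 and 2.64 (37 and 87 counts) and *Musk* at 1.21 and 1.34 (30 and 44 counts). *Chrnb1* stood at 0.402 and 0.273 CPM (10 and 9 counts), *Rapsn* at 0.322 and 0.182 CPM (8 and 6 counts) and *Chrnd* at 0.201 and 0.121 CPM (5 and 4 counts). *Chrng* (8 and 1 counts) and *Chrne* (1 and 7 counts) passed the floor in 1 library each. Some muscle markers, such as *Actc1* (6.03 and 8.23 CPM) and *Myog* (15 and 38 counts), were above the floor in the same libraries. Others were not in both, with *Pax7* at 3 and 5 counts, *Myf5* at 2 and 1, *Myod1* at 0 and 7 and *Mymx* at 0 and 27. The part of muscle cells in these counts was not tested. No control population was used for this reading, since the columns of sorted Pdgfra+ cells carry names that do not tell their Thy1 gate.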

How the results depend on the processing

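The 6 calls between LM-like and EM-like cells were kept under every alternative in which the gene was fitted, and the only member value there to change sides was *Rapsn*, called higher without Smart-seq2 E16.5. Over all genes, 23.9% of those tested (2426 genes) were called, against 20.9% (983 genes) with 10× pools alone, 8.66% (1106 genes) with Smart-seq2 pools alone and 13.7 to 22.5% (1564 to 2557 genes) with each pool left out in turn. Between days in EM-like cells 9.18% were called, against 3.35% by DESeq2, 4.80% with sums of at least 10 cells and 0.421 to 13.98% with a pool left out. Of the member values there, 10 fell short of the threshold and 1 passed it (*Rapsn* without the 10× pool of E16.5). The day difference of *Rapsn* turned to -0.38 without Smart-seq2 E12.5 and -0.48 without Smart-seq2 E16.5 (range -0.48 to 1.25), and that of *Lrp4* to -0.06 and -9.56 (range -9.56 to 1.26). Both had missed the threshold. In LM-like cells 0.295% of genes were called between days, against 0.0927% by DESeq2, 11.6% with sums of at least 10 cells, 0.0467% with LM-like sums alone and 0.0434 to 1.38% with a pool left out. For the change of the class difference 0.206% were called, against 0.574% with platforms clustered alone, 4.42% with sums of at least 10 cells and 0 to 0.913% with a pool left out. The 0 was by edgeR without Smart-seq2 E16.5, where 4.86% of genes had an unadjusted p under 0.05. The use of at least 10 cells adds the Smart-seq2 LM-like sum of E12.5; the cause of the other shifts was not tested. The number of members with a higher share in LM-like cells was 7 on each platform. It stayed within 1.5 times that in all 8 alternatives, but this band is too wide to test a set of so few genes. Resolution 0.4 gave the same EM-like and LM-like cells as the main setting. The share of all genes with a higher share in LM-like cells was not worked out. Depth limits 10× most at E12.5 and E16.5, where several members had 0 to 4 UMIs in a class. The class fit carries the pool as a block. No paired analysis was possible because, beyond that, pools carry no replicate numbers and the bulk columns of most groups could not be matched to samples.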
